A study of Mus musculus with 20 samples.

Results

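The enzymes that hydroxylate collagen in the endoplasmic reticulum (ER), together with the chaperones that fold it there, were followed in fibroblasts sorted from mouse dermis. The members were named by function, with earlier results of these data known. They were P4ha1, P4ha2, P4ha3, P3h1, P3h4, Crtap, Plod1, Plod2, Serpinh1 and Ppib. Of these 10 genes, 9 were measured by a probe set that names 1 gene, out of 17097 such genes on the array, and each gene was read from its brightest such probe set. P4ha1 was not analysed here.

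The samples were 20 arrays, 1 per female mouse, in 4 groups of 5. Young ND mice (labelled ND - Young) were 4 weeks old and had a normal diet (ND), freely available, for 4 weeks. The other 15 mice entered at 9 months of age and were killed at 18 months. Old ND mice (ND - Old) had the normal diet for those 9 months. Old CR mice (ND/CR - Old) had it for 2 months and then 30% caloric restriction (CR) for 7 months, whereas Old CR-ND mice (CR/ND - Old) had the 7 months of restriction first and returned to the normal diet for the last 2 months. The age of the Young ND mice at collection is not spelled out, and no strain is named. Cells were sorted as Pdgfra and CD34 positive and as negative for CD45, CD117, CD24, CD31 and EpCam, so each array shows that sorted population and not whole skin.

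Procollagen chains are made into the ER, where they are modified before they wind into a triple helix. Prolyl 4-hydroxylase, a tetramer of catalytic alpha subunits such as P4ha2 and the shared beta subunit P4hb, makes the 4-hydroxyproline that keeps the helix stable at body temperature. P3h1, Crtap and Ppib form a complex that 3-hydroxylates single prolines and isomerizes proline bonds. Plod1 and Plod2 hydroxylate lysines of the helix and of the telopeptides, which sets how fibrils are crosslinked. P3h4 is a partner of the lysyl hydroxylation machinery, and Serpinh1 (HSP47) binds the finished helix until it leaves the ER.

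Promoters of 4 members that fell together with age are shown so that their start regions can be read beside the values. Each is the 250 bases before the annotated transcript start, 5′ to 3′ on the gene's strand, from RefSeq, build GRCm38.p6. They lie at chr11:54100674-54100923 (plus strand) for P4ha2, chr4:119232665-119232914 (plus strand) for P3h1, chr7:99353240-99353489 (minus strand) for Serpinh1 and chr9:66059919-66060168 (plus strand) for Ppib. Capitals mark matches on either strand to ACGTG, the core of hypoxia response elements, to CCAAT, and to GGGCGG, the GC box.
P4ha2: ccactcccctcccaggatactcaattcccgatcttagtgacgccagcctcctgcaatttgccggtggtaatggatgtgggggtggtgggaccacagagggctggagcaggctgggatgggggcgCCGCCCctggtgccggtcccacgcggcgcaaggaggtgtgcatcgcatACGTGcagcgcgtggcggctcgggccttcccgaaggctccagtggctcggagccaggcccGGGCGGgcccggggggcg
P3h1: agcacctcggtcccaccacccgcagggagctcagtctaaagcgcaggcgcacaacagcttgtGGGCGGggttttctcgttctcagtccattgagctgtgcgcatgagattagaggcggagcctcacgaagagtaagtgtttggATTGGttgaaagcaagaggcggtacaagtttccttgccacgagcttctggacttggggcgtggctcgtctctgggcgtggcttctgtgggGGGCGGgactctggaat
Serpinh1: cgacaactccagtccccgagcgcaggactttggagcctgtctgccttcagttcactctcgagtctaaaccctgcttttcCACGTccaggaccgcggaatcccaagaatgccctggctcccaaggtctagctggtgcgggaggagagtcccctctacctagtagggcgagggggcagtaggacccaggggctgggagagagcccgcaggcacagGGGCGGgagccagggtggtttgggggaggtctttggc
Ppib: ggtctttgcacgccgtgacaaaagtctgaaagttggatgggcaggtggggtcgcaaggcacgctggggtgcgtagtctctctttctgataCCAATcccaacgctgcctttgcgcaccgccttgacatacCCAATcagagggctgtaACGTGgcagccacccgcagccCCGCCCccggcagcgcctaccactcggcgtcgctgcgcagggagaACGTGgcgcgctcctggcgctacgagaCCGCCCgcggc
Promoter sequences were matched for 7 of the 9 measured members, all but P3h4 and Plod2, and the first listed start of each was searched. GGGCGG was present in 6 of the 7, all but Crtap, and in 32.7% of 32851 promoter windows of that length. ACGTG was present in 3, P4ha2, Serpinh1 and Ppib, and in 16.6% of all windows, and CCAAT in 2, P3h1 and Ppib, and in 33.8% of all windows. A second listed start of P3h1, not printed and not counted here, had 2 matches to ACGTG, 31 and 19 bases before it, and 1 match to CCAAT 80 bases before it. TATAAA was present in 2, Crtap and Plod1, and in 12.4% of all windows. The heat shock letters GAANNTTC (6.69% of all windows) and the full ER stress response element (0.113%), searched on both strands, had no match in these 7 windows. The 4 printed windows had a GC content between 58.4% and 70.0%, against a median of 52.4% over all windows, and GGGCGG is itself made of G and C. Among the other members' first starts the GC content was 53.6% for Crtap, 61.6% for Plod1 and 67.2% for P4ha3, which did not fall. A match is a run of letters in this window and was not tied to binding of any factor.

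Values are log2 levels, and a difference is the log2 fold change ± the standard error (SE) of limma, fitted over all 20 arrays, with its p adjusted by Benjamini-Hochberg over the 17097 genes. A gene was called when that adjusted p was below 0.05. Array medians lay between 5.27 and 5.34 and the median gene level was 5.88. Precision is limited by how many arrays there are. The array numbers in the titles form 2 separate runs, of 13 and 7 arrays, which is all the labels say of them, and each group has arrays of both. Holding the group constant, 2934 genes and 1 member, Plod1 (-0.60 ± 0.13, adjusted p = 0.00377), differed between the runs. The array levels of Cd34 (mean 11.18), Dcn (13.22) and Lum (11.65) were high, as in fibroblasts, Pdgfra averaged 5.97, and Ptprc, which encodes CD45, averaged 3.25. Among the other genes sorted against, Kit (CD117) averaged 3.37, Epcam 5.08 and Pecam1 (CD31) 5.64. Several markers of other cells averaged above Pdgfra, among them Krt5 (8.90), Crabp1 (8.90), Krt10 (7.93), Dsp (7.70), H2-Ab1 (7.51) and Cd68 (7.44). In sorted cells a smaller share of cells that express a gene and less RNA per cell cannot be told apart.

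Old ND against Young ND asks how these genes differed with age on the normal diet. Of the 9 measured members 7 fell and 0 rose, where 6.49% of all genes fell and 10.9% changed in either direction. P4ha2 fell most, by 1.69 on the log2 scale (3.23-fold), followed by Plod1, P3h4, P3h1, Serpinh1, Ppib and Crtap. P4ha3 and Plod2 did not pass. The median difference of the 9 members was -0.79, against 0.00 over all genes, and in the same 7 members the arrays of Old ND and Young ND did not overlap, where 4.54% of all genes were lower without overlap. Leaving out any 1 of the 10 arrays, the count stayed at 7.

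**Figure D1:**
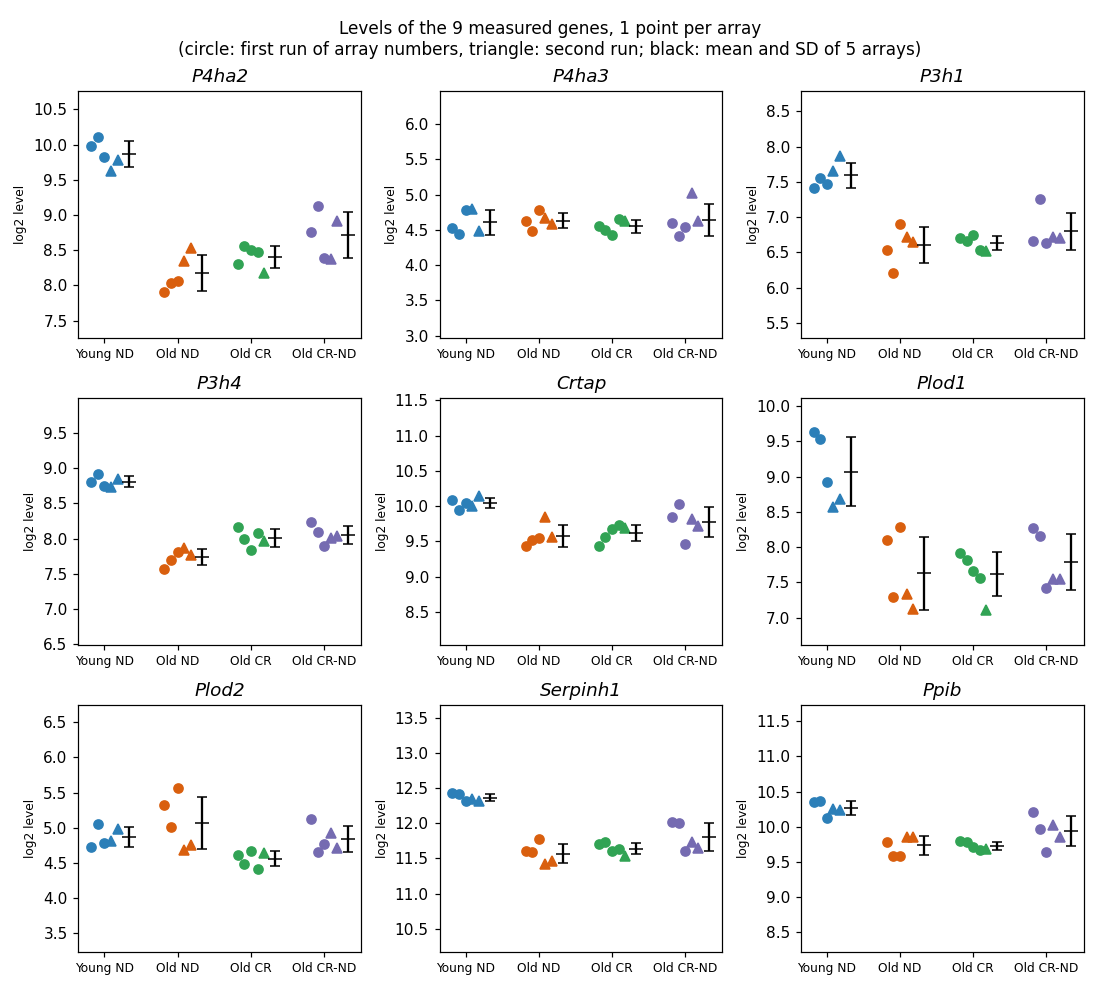
Log2 level (y axis, the same span of 3.5 log2 units in every panel) of each measured member on each of the 20 arrays, by group (x axis). Circles are arrays of the first run and triangles of the second, and the black mark is the mean with the SD of 5 arrays. In 7 panels the Young ND points lie above all Old ND points, and P4ha3 and Plod2 show no such step.

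P4ha2 is an alpha subunit of prolyl 4-hydroxylase and carries its active site. Its levels were 9.98, 10.11, 9.83, 9.63 and 9.78 in Young ND and 7.91, 8.04, 8.06, 8.34 and 8.53 in Old ND. They were 8.31, 8.56, 8.51, 8.48 and 8.18 in Old CR and 8.76, 9.13, 8.39, 8.38 and 8.91 in Old CR-ND. All 15 old arrays lay below all 5 Young ND arrays, and among the old groups the ranges overlapped. The mean was 9.87 ± 0.19 (SD, n = 5) in Young ND and 8.18 ± 0.25 in Old ND, a difference of -1.69 ± 0.14 (adjusted p = 1.06e-07). The first run alone gave -1.97 and the second -1.27, both called. By p P4ha2 ranked 21 among all genes. P4ha3, the third alpha subunit, ranged from 4.42 to 5.03 over the 20 arrays, near the lower quartile of gene levels (4.54), and its difference was 0.02 ± 0.10 (adjusted p = 0.932).

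All members of the complex of P3h1, Crtap and Ppib fell. P3h1, its catalytic prolyl 3-hydroxylase, had levels of 7.42, 7.55, 7.47, 7.66 and 7.87 in Young ND and 6.53, 6.21, 6.90, 6.72 and 6.64 in Old ND. Old CR gave 6.70, 6.66, 6.75, 6.53 and 6.52, and Old CR-ND 6.66, 7.26, 6.63, 6.72 and 6.71. Every old array was again below every young one, the nearest being Old CR-ND replicate 2 at 7.26. The difference between Old ND and Young ND was -0.99 ± 0.13 (1.99-fold, adjusted p = 1.56e-05). The other P3h1 probe set, a dimmer one, gave -0.73 (adjusted p = 0.000104 over all probe sets). Crtap, the helper protein that P3h1 needs for its stability, ran from 9.95 to 10.14 in Young ND and from 9.43 to 9.84 in Old ND and fell by 0.47 ± 0.09 (adjusted p = 0.00187). Ppib, the prolyl isomerase cyclophilin B, ran from 10.12 to 10.36 and from 9.59 to 9.86 and fell by 0.53 ± 0.09 (adjusted p = 0.000364). Within the second run alone, with 2 arrays a group, Crtap (-0.37, adjusted p = 0.174) and Ppib (-0.39, adjusted p = 0.107) were not called.

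Of the lysyl hydroxylases among the members, Plod1 fell and Plod2 did not pass. Plod1, which acts on the helix, had levels of 9.63, 9.54, 8.93, 8.57 and 8.69 in Young ND and 8.10, 7.29, 8.28, 7.34 and 7.12 in Old ND. In Old CR they were 7.92, 7.82, 7.66, 7.56 and 7.11 and in Old CR-ND 8.27, 8.16, 7.42, 7.55 and 7.55. The range within a group was 0.81 to 1.16, wider than for the other members that fell. The groups still did not overlap, and Plod1 fell by 1.45 ± 0.25 (2.72-fold, adjusted p = 0.000481). The runs gave -1.48 and -1.40. With the run held constant its adjusted p was 7.44e-06. The other Plod1 probe set averaged 4.67, near the lower quartile, and was not called (-0.21, adjusted p = 0.242). Plod2, which acts on the telopeptides, had levels of 4.73, 5.06, 4.79, 4.81 and 4.99 in Young ND and 5.32, 5.01, 5.56, 4.69 and 4.75 in Old ND. It did not pass (0.19 ± 0.13, adjusted p = 0.448), and its sign differed between the runs (0.44 in the first, -0.18 in the second). The other Plod2 probe set, which averaged 3.92, was higher in Old ND by 0.34 (adjusted p = 0.0369 over all probe sets).

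P3h4, the partner without a hydroxylase activity of its own, had the smallest p of the members. Its levels were 8.80, 8.92, 8.75, 8.73 and 8.84 in Young ND and 7.57, 7.70, 7.81, 7.87 and 7.77 in Old ND. Old CR gave 8.17, 7.99, 7.84, 8.08 and 7.96 and Old CR-ND 8.23, 8.10, 7.89, 8.01 and 8.04. The SD within groups was 0.08 to 0.12, and the groups of the age comparison were 0.86 apart at their nearest arrays. The difference was -1.06 ± 0.08 (2.09-fold, adjusted p = 1.62e-08), with rank 7 by p among all genes. The first run alone gave -1.13 and the second -0.97.

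Serpinh1, the chaperone dedicated to collagen, had levels of 12.43, 12.41, 12.32, 12.35 and 12.31 in Young ND and 11.61, 11.59, 11.77, 11.42 and 11.46 in Old ND. They were 11.70, 11.73, 11.61, 11.63 and 11.53 in Old CR, and the 5 Old CR-ND arrays ran from 11.61 to 12.02 with a median of 11.74. Young ND stood above every old array. From Young ND to Old ND Serpinh1 fell by 0.79 ± 0.08 (1.73-fold, adjusted p = 1.80e-06), and the runs gave -0.73 and -0.89. The other Serpinh1 probe set averaged 9.69 and fell by 1.46 (adjusted p = 7.19e-05 over all probe sets).

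Whether related members fell by different amounts was tested on the per-array difference of their log2 levels with exact permutation tests, two-sided, over 4 pairs and 3 comparisons, adjusted over the 12 tests. The smallest p that 5 against 5 arrays allow is 0.00794, and 1 test alone at that p has an adjusted p of 0.0952. None of the 12 passed. Plod2 minus Plod1 was 1.64 higher in Old ND than in Young ND (exact p = 0.00794, adjusted p = 0.0952, no overlap of the arrays). P3h1 minus Crtap differed by -0.53 (exact p = 0.0159, adjusted p = 0.0952), Serpinh1 minus Ppib by -0.27 (exact p = 0.0873, adjusted p = 0.248) and P3h4 minus P3h1 by -0.07 (exact p = 0.587, adjusted p = 0.783). With the mean of each gene's probe sets the first 3 of these passed (adjusted p = 0.0238 each). Omitting replicate 3 of Old ND had the same effect (adjusted p = 0.0317 each). In Old CR against Old ND, Plod2 minus Plod1 differed by -0.49 (exact p = 0.0397, adjusted p = 0.159), and it passed once replicate 5 of Old CR was omitted (-0.64, adjusted p = 0.0476). In Old CR-ND against Old ND it differed by -0.39 (exact p = 0.103, adjusted p = 0.248) and passed with the mean of the probe sets (-0.34, adjusted p = 0.0238).

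The genes that surround these enzymes were taken from lists named by function, also chosen with earlier results of these data known. Of 21 measured genes listed as ER partners of collagen hydroxylation and folding, 14 were lower with age and 0 higher at an adjusted p below 0.05. Their differences ran from -0.28 to -1.30, with a median of -0.50 over the list. The list, called ER partners here, also holds genes that act outside the ER. Of these Mrc2 (-0.84) and Pepd (-0.49) were among the 14. The difference was -1.30 ± 0.12 for Kdelr3 and -0.56 ± 0.06 for Kdelr2, receptors that return chaperones to the ER. For Sec24d, a coat protein of vesicles that carry procollagen, it was -1.08 ± 0.09, and -0.89 ± 0.08 for Fkbp7, an ER prolyl isomerase (adjusted p from 1.37e-07 to 3.95e-06 for the 4 genes). Further partners and relatives of the members were picked from the list after their values were seen, and their falls are among the 14. They were P4hb, the beta subunit (-0.28 ± 0.07, adjusted p = 0.0148), P3h3, the partner of P3h4 (-0.50 ± 0.10, adjusted p = 0.00185), and Plod3, the third lysyl hydroxylase (-0.54 ± 0.13, adjusted p = 0.00862). P3h2, a further prolyl 3-hydroxylase, had a difference of 0.10 ± 0.09 and did not pass (adjusted p = 0.561). In the first run alone 12 of the ER partners fell, and 9 in the second.

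Of 18 collagen chains, the substrates, 8 fell and 0 rose with age, with a median of -0.37. The number that fell was 6 in the first run alone, 11 in the second alone and 9 when the run was a block. Col5a1, Col5a2 and Col5a3, chains of type V collagen, fell (-0.98, -1.06 and -1.72), and so did Col1a1, a chain of type I (-0.48). Of 16 general ER chaperones 2 fell and 0 rose, with a median of -0.20. The chaperones that fell were Sdf2l1 (-0.58 ± 0.14, adjusted p = 0.00758) and Dnajc3 (-0.35 ± 0.11, adjusted p = 0.0449), both cofactors of the ER chaperone BiP. That count was 1 when replicate 1, 2 or 3 of Young ND, or replicate 2, 3, 4 or 5 of Old ND, was left out. It was 1 in the first run alone, 0 in the second alone and 4 when the run was a block. Among 9 other prolyl isomerases, Ppic, another secretory cyclophilin, and Fkbp1a of the cytosol fell (-0.70 ± 0.13 and -0.27 ± 0.07), while Fkbp5, a glucocorticoid-induced cochaperone, rose by 0.44 ± 0.11 (adjusted p from 0.000806 to 0.0164). Of 19 hypoxia targets 1 rose and 1 fell. Egln3, a prolyl hydroxylase that marks the hypoxia factor for degradation, rose by 0.73 ± 0.23 and Higd1a, a mitochondrial protein, fell by 0.84 ± 0.13, and the list's median was 0.13. Among 10 genes for the cosubstrates of hydroxylation, Slc2a3, a glucose transporter, rose by 0.84 ± 0.12 and Idh2, which makes 2-oxoglutarate in mitochondria, fell by 0.74 ± 0.14. Of 11 proliferation genes 1 rose (Pcna, 0.39 ± 0.11) and 1 fell (Tyms, -0.36 ± 0.10). Over all genes 4.45% rose and 6.49% fell, and the differences between lists were not tested.

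Markers of fibroblasts and of other cells were read beside these falls. Of the 7 fibroblast markers 2 fell in Old ND, Cd34 (means 11.30 in Young ND and 11.01 in Old ND) and Col1a1, which is also in the collagen list. The summed fibroblast level, on the log2 scale, ran from 14.74 to 14.85 in Young ND and from 14.52 to 14.69 in Old ND, without overlap. It sums unlogged levels, so the brightest markers, Dcn (means 13.19 and 13.21) and Col1a1 (13.33 and 12.85), weigh most. The means were higher in Old ND for Pdgfra (5.71 and 6.20) and Pdgfrb (9.18 and 9.34) as well. They were lower for Lum (11.69 and 11.62) and Thy1 (11.20 and 11.09). The median difference of the list was -0.07. No marker of the keratinocyte, endothelial, immune, mast cell, melanocyte, adipocyte, Schwann cell or dermal papilla lists passed in Old ND against Young ND. Kcnj8 of the pericyte list rose (means 5.69 in Young ND and 6.72 in Old ND) and Des of the muscle list fell (6.26 and 5.91). The summed level of the 7 immune markers, on the log2 scale, ran from 8.10 to 8.70 in Young ND and from 8.93 to 9.43 in Old ND without overlap, with Cd68 at 6.73 and 7.67, H2-Ab1 at 7.23 and 7.89 and Ptprc at 3.25 and 3.26 on average. The summed level of 8 keratinocyte markers ran from 9.28 to 10.94 in Young ND and from 9.09 to 11.90 in Old ND. The part of these differences in the falls was not tested.

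Old CR against Old ND and Old CR-ND against Old ND ask whether restriction, late or early, was tied to the levels of these genes at 18 months. None of the 9 members was called in either comparison by limma. At an unadjusted p below 0.05 there were 2 members in the first and 5 in the second, where 14.5% and 5.08% of all genes were below it. Over all genes 2.39% were called in the first comparison and 0.00585% in the second. The median difference of the members was 0.03 in Old CR and 0.20 in Old CR-ND, against 0.00 over all genes in both. The comparisons share the Old ND arrays.

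**Figure D2:**
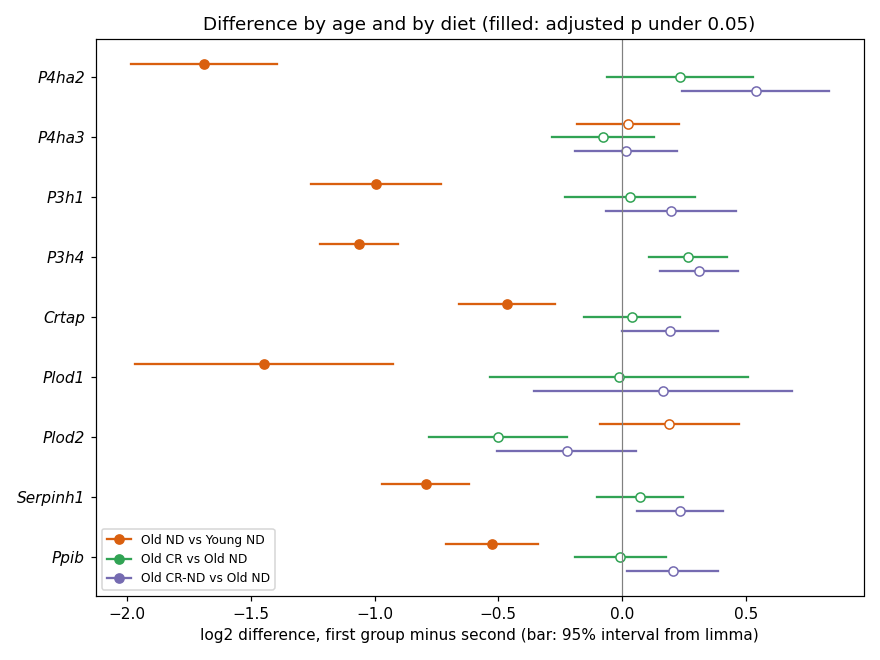
Log2 difference (x axis) of each member (y axis) for Old ND against Young ND, Old CR against Old ND and Old CR-ND against Old ND, with the 95% interval from limma. Filled points had an adjusted p below 0.05. The 7 filled points are all of the age comparison and lie left of 0, and the points of both diet comparisons are open.

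Relative to Old ND, P4ha2 was 0.23 ± 0.14 higher in Old CR (95% interval -0.06 to 0.53, adjusted p = 0.497) and 0.54 ± 0.14 higher in Old CR-ND (0.24 to 0.83, adjusted p = 0.412). P3h4 was higher by 0.26 ± 0.08 in Old CR (0.11 to 0.42, adjusted p = 0.0714) and by 0.31 ± 0.08 in Old CR-ND (0.15 to 0.47, adjusted p = 0.396). In Old CR-ND every P3h4 array lay above every Old ND array, by 0.02 at the nearest, where 0.31% of all genes were higher without overlap. P3h4 passed in Old CR only without Old ND replicate 4 (adjusted p = 0.0489). Both values stayed well short of Young ND, where the mean of P3h4 was 8.81 ± 0.08 against 8.01 ± 0.12 in Old CR and 8.05 ± 0.12 in Old CR-ND.

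Serpinh1 differed from Old ND by 0.07 ± 0.08 in Old CR (-0.10 to 0.24) and by 0.23 ± 0.08 in Old CR-ND (0.06 to 0.41, adjusted p = 0.844). Ppib differed by -0.01 ± 0.09 in Old CR (-0.19 to 0.18) and by 0.20 ± 0.09 in Old CR-ND (0.02 to 0.39, adjusted p = 0.930). Crtap differed by 0.04 ± 0.09 and 0.19 ± 0.09, and P3h1 by 0.03 ± 0.13 and 0.20 ± 0.13. The intervals of Serpinh1, Ppib and Crtap in Old CR end at or below 0.24, below the estimates of their age differences (0.79, 0.53 and 0.47). Those estimates have an SE of their own and share the Old ND arrays, and a return to the Young ND level was not tested. The interval of Plod1 (-0.53 to 0.51 in Old CR) was wider and also ends below its age difference of 1.45.

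Plod2 was the member nearest to a call in Old CR. Its levels there were 4.61, 4.48, 4.67, 4.42 and 4.64, all below the lowest Old ND array (4.69), where 1.02% of all genes were lower without overlap. The difference was -0.50 ± 0.13 (adjusted p = 0.0521). Treating the run as a block gave an adjusted p of 0.0250, the first run alone -0.75 (adjusted p = 0.00979), and leaving out Old ND replicate 4 or 5 an adjusted p of 0.0182 or 0.0255, all past the threshold. Other settings moved it away from the threshold: the second run alone, where Old CR has 1 array, gave -0.08 (adjusted p = 0.997), a fit of only Old ND and Old CR an adjusted p of 0.146, and leaving out Old ND replicate 3 or 1 gave -0.38 (adjusted p = 0.134) or -0.44 (adjusted p = 0.129). Over all single arrays left out, the adjusted p ran from 0.0182 to 0.140. The other probe set gave -0.35 (adjusted p = 0.0859 over all probe sets). Both probe sets lie below the median gene level. The summed immune markers, with 8.71 to 8.93 in Old CR, lay at or below the lowest Old ND array (8.93), and none of them was called. From Old ND to Old CR the mean of H2-Ab1 went from 7.89 to 6.86 and that of Lyz2 from 5.11 to 4.73. Only Cd68 had a higher mean in Old CR (7.67 and 7.76). The summed level of the 4 pericyte or smooth muscle markers was 7.79 to 8.34 for Old ND and 8.60 to 8.85 for Old CR, without overlap. Of these only Kcnj8 had a higher mean in Old CR (6.72 and 8.01). The means were lower there for Rgs5 (4.92 and 4.81), Myh11 (5.28 and 5.22) and Acta2 (6.72 and 6.63). The part of either list in the Plod2 difference was not tested. In Old CR-ND the levels were 5.13, 4.66, 4.77, 4.93 and 4.72 and the difference from Old ND was -0.22 ± 0.13 (adjusted p = 0.986).

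The restricted groups can also be set against Young ND. In Old CR 7 members fell and 0 rose, where 5.56% of all genes fell and 12.7% changed, and in Old CR-ND 6 fell and 0 rose, where 3.82% of all genes fell and 7.04% changed. P4ha2 was lower than in Young ND (-1.46 ± 0.14 in Old CR, adjusted p = 7.97e-07, and -1.15 ± 0.14 in Old CR-ND, adjusted p = 2.57e-05). The differences in Old CR and Old CR-ND were -0.80 and -0.75 for P3h4, -0.96 and -0.80 for P3h1, -1.46 and -1.28 for Plod1 and -0.72 and -0.56 for Serpinh1, each called in both. The other, dim Plod1 probe set was called in neither (-0.25, adjusted p = 0.141, and -0.18, adjusted p = 0.404, over all probe sets). Within the first run the call of P3h1 in Old CR-ND was lost (-0.63, adjusted p = 0.0565). Crtap was called in Old CR (-0.43, adjusted p = 0.00362) and not in Old CR-ND (-0.27, adjusted p = 0.0880), though it was called there without Old CR-ND replicate 2 (adjusted p = 0.0328). Ppib was called in both (-0.53, adjusted p = 0.000299, and -0.32, adjusted p = 0.0291), but in Old CR-ND that call ended without Young ND replicate 1, 2 or 5 or Old CR-ND replicate 3 or 5 (adjusted p from 0.0503 to 0.0981). Direct comparison of Old CR-ND with Old CR called 0 of 9 members by limma, with 2 at an unadjusted p below 0.05 (9.79% of all genes were below it, and 0.333% were called). All 9 means were higher in Old CR-ND, by 0.05 to 0.31. These comparisons share Young ND and old arrays with the ones above.

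In order of mean level, P4ha2, P3h1, P3h4, Crtap and Serpinh1 ran Young ND, Old CR-ND, Old CR and Old ND, and the old groups were not called different from each other. In Ppib the means of Old ND and Old CR were 9.74 and 9.73, and in Plod1 7.63 and 7.61, so that Old CR came last in both.

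The partner lists in Old CR against Old ND are given for their own counts. Of the 21 ER partners 0 were called by limma, and the smallest adjusted p was that of Sec24d (0.27 ± 0.09, adjusted p = 0.146), followed by Creb3l1, a transcription factor of collagen secretion (0.41 ± 0.15, adjusted p = 0.175). Of 18 collagen chains 3 fell (Col15a1, Col6a3 and Col4a1, with differences from -0.69 to -1.12) and 0 rose, with a median of -0.55. Of 16 general ER chaperones 3 fell and 0 rose, with a median of -0.14. The chaperones that fell were Creld2 (-0.80 ± 0.15, adjusted p = 0.00883), Manf (-0.61 ± 0.14, adjusted p = 0.0215) and Herpud1 (-0.47 ± 0.11, adjusted p = 0.0315). Over all genes 0.819% fell in this comparison. The collagen count was 1 when replicate 1 or 3 of Old ND or replicate 4 of Old CR was left out, 6 when replicate 5 of Old ND was, 7 in the first run alone and 8 when the run was a block. The chaperone count was 1 when replicate 1 or 3 of Old ND or replicate 3 or 4 of Old CR was left out. In the second run alone, where Old CR has 1 array that is assumed to vary like the others, both counts were 0. In this comparison 1 of the 4 pericyte or smooth muscle markers rose (Kcnj8, whose mean was 6.72 for Old ND and 8.01 for Old CR), and the summed levels of that list and of the immune list stood apart between the groups as given beside Plod2. Their part in the collagen and chaperone falls was not tested. Bnip3, a mitochondrial hypoxia target, was the 1 of 19 that rose (0.82 ± 0.18, adjusted p = 0.0213). In Old CR-ND against Old CR, Creld2 rose by 0.92 ± 0.15 (adjusted p = 0.00959), Herpud1 by 0.54 ± 0.11 (adjusted p = 0.0444) and Col15a1 by 0.65 ± 0.14 (adjusted p = 0.0444). Over all genes 0.333% were called in Old CR-ND against Old CR. No gene of these lists was called in Old CR-ND against Old ND.

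**Figure D3:**
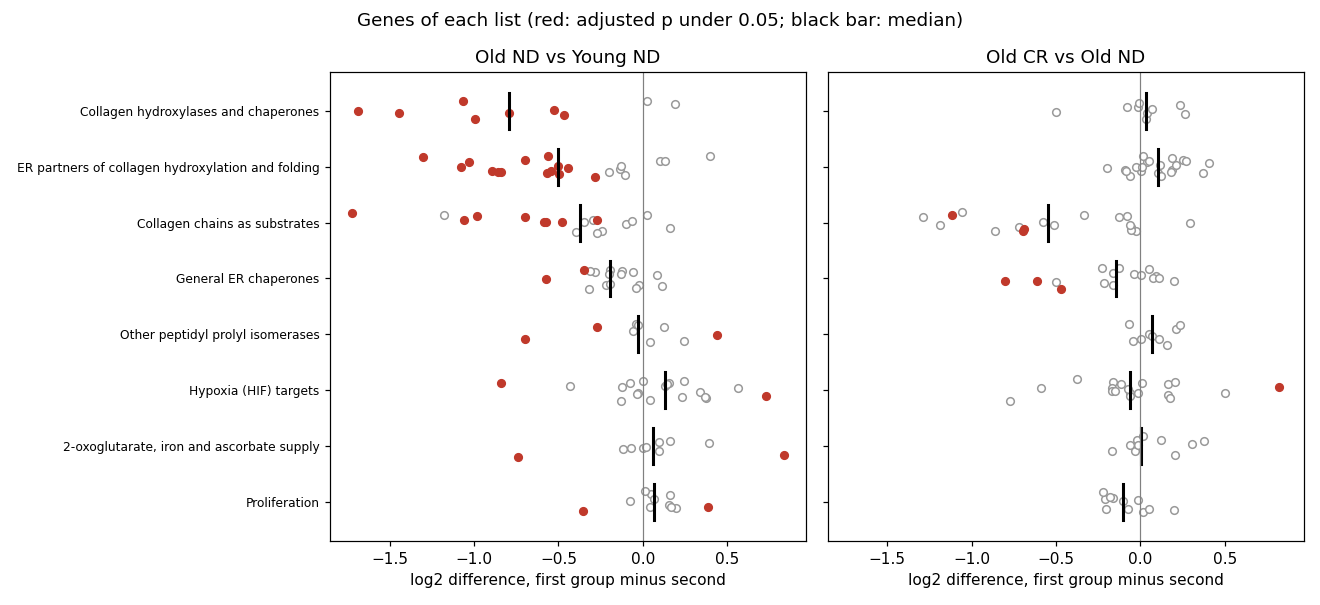
Log2 difference (x axis) of every measured gene of each list (y axis) in Old ND against Young ND (left) and Old CR against Old ND (right). Red points had an adjusted p below 0.05 and the black bar is the median of the list. On the left the members (median -0.79) and their ER partners (-0.50) lie furthest below 0, and on the right the lowest median is that of the collagen chains (-0.55).

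How the members varied from mouse to mouse was described by the correlation of their deviations from the group means over the 20 arrays, which share RNA, amplification and normalization within an array. Among all 36 pairs of the 9 members, 25 had r above 0, with a median of 0.22. Among the 21 pairs of the 7 members that fell with age, 20 had r above 0, with a median of 0.35. The highest was Serpinh1 with Plod1 (r = 0.81, and 0.67 with the run removed as well), and Ppib with P3h4 followed (0.53). Plod1 was the member that differed between the runs. P4ha3 had its lowest value with P4ha2 (r = -0.52). In Old CR-ND replicate 3 all 9 members lay below the mean of their group.

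**Figure D4:**
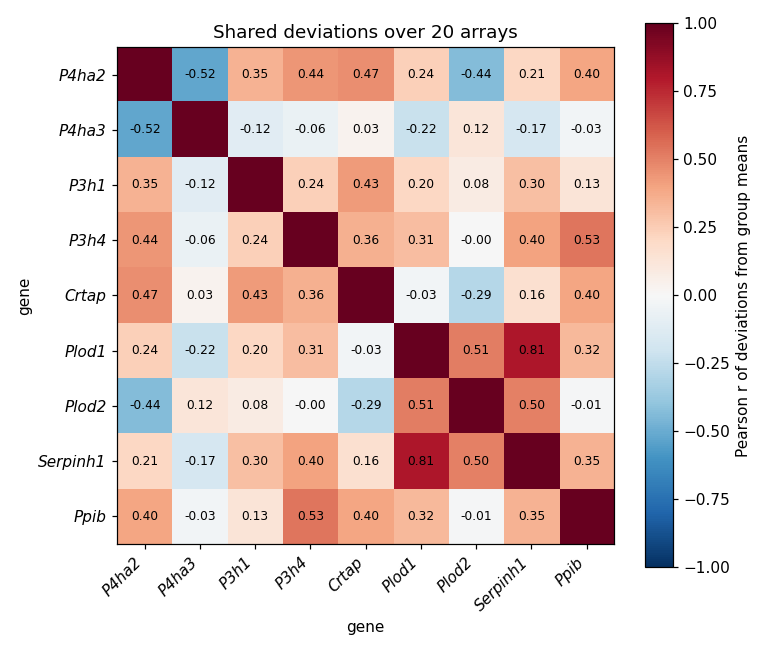
Pearson r (colour, and number in each cell) between members of their deviations from the group means over 20 arrays. Off the diagonal the cell of Serpinh1 and Plod1 is the darkest red (0.81), and the rows of P4ha3 and Plod2 hold most of the negative values.

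The genes outside the list whose levels were most like Serpinh1 over the 20 arrays, by Pearson r, were Vkorc1 (0.97), an ER enzyme that recycles vitamin K, Col1a1 (0.97), Ssr2 of the translocon (0.96), Kdelr3 (0.96) and Lman1, a cargo receptor for ER export (0.96). Most like P4ha2 were Rcn3, an ER calcium-binding protein (0.97), the receptor Fgfr4 (0.96), Fkbp7 (0.96), Papss2, which makes the sulfate donor (0.96), and Gpha2 (0.95). These values hold the step between Young ND and the old groups. For the deviations from the group means r was 0.89 for Col1a1 and 0.65 to 0.77 for the other 4 genes with Serpinh1, and 0.55 to 0.70 for the 5 genes with P4ha2. Ssr2 averaged 9.31 in Young ND, 8.21 in Old ND, 8.21 in Old CR and 8.40 in Old CR-ND.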

How the data were processed

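RNA of sorted cells from each mouse was amplified over 20 cycles and hybridized to Affymetrix arrays, per the labels' protocols. The deposited values are log2 levels per probe set that the authors made with RMA from the affy package, per the submitters' processing notes, which name no versions. Quantile normalization within RMA removes shifts shared by all genes of an array.

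Of 45141 probe sets, 28898 name 1 gene, 551 several and 15692 none in the annotation used, and only the first were kept. Symbols were updated through Entrez numbers against RefSeq (GRCm38.p6), which matched 28689. Per gene the probe set with the highest mean was kept, and no dim gene was left out. All arrays were fitted with lmFit and eBayes (limma 3.58.1, R 4.3.3), 1 mean per group, 16 residual degrees of freedom, two-sided. The pipeline was tested on simulated data. Replicates were numbered in accession order.

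Members and lists were chosen with earlier results of these data known. The naming rule took all members, plus up to 4 (age) or 3 (other comparisons) called genes per list, or the 2 with the smallest p, and 5 genes most like Serpinh1 and P4ha2. Not every list gene it took is printed here, and some other list genes are. The lists are not given for Old CR or Old CR-ND against Young ND. The planned difference of P4ha2 and P4ha1 was not run.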

Additional observations from a re-analysis of the deposited data

Results flagged for a closer look

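In P3h1, Old CR-ND replicate 2 (7.26) stood apart from its group, whose next highest array was at 6.72. The gap is 0.857 of the group's range. Of 36 groups of 5 arrays checked over the 9 members this was the 1 that exceeded Dixon's critical value for 5 samples, and chance sets off about 1 in 20.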

How the results depend on the processing

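The counts of members called in Old ND against Young ND (7), Old CR against Young ND (7) and Old CR-ND against Young ND (6) stayed within 1.5 times under every alternative run, and those of Old CR-ND against Old ND and against Old CR stayed at 0. In Old CR against Old ND the count of 0 became 1, always Plod2, when all probe sets of a gene were averaged, arrays were median-centred, eBayes used trend and robust, arrays were weighted, the run was a block, or the first run stood alone. Leaving out 1 array at a time it ranged from 0 to 2. The cause was not tested. Of 1092 member values under alternatives 1063 kept their side of the threshold, 17 calls were lost, 12 were gained, and 0 called values changed sign. No paired analysis was possible because the labels carry no replicate numbers that pair mice across groups. Leaving out dim genes kept 8907 genes and 7 of the 9 members, without P4ha3 and Plod2, so they have no value there. The list counts under the runs and without single arrays were added after the data were seen. Signal near background limits what P4ha3 and Plod2 can show.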
